A study of Mus musculus with 27 samples.

Results

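The immediate early genes Fos, Fosb, Jun, Junb, Egr1, Atf3, Ier2, Ier3, Klf6 and Btg2 are 10 of the 21823 genes in the expression table, and they were taken by their symbols. All 10 were found, each under 1 identifier, and all 10 passed the filter on low values that left 12952 genes for testing. They were followed in lobular zones 1, 2 and 3 of livers of WT female mice, C57BL/6 in the labels and C57BL/6N in the study's methods, that were non-pregnant (NP) or pregnant, taken 8 or 16 days post coitum (groups dpc8 and dpc16). No other agent, allele or treatment is named for these samples. By convention zone 1 lies around the portal vein, zone 3 around the central vein and zone 2 between them. The zones were cut from frozen sections by laser microdissection, and rRNA-depleted RNA was sequenced, with 3 libraries in each of 9 groups and 27 in all. Values are FPKM, that is, fragments scaled to transcript length and library size. The study describes its experiments as independent and done in different mice, but the labels do not tie a library to a mouse, so p-values measure the spread between these libraries.

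Immediate early genes are transcribed within minutes of a stimulus from factors already present in the cell, without new protein synthesis, and their short-lived mRNAs fall again soon after. Growth factors and stress kinases act on them through serum response factor with its ternary complex partners and through CREB, and most of the products are transcription factors that act on a second wave of genes. In liver they are known for their response to partial hepatectomy, to perfusion and cell isolation, and to handling of the tissue, and their mRNAs are not restricted to hepatocytes.

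The members differed in the region before the gene, and 3 windows from RefSeq on GRCm38.p6, from 250 bases before to 50 bases after the start, are shown for Fos, Klf6 and Ier3, the members with the widest spread within groups apart from Egr1. Capitals mark TGACG on either strand, the short site bound by CREB and ATF factors, and TATAAA. The Fos window is chr12:85473640-85473939 on the plus strand, that of Klf6 is chr13:5861239-5861538 on the plus strand and that of Ier3 is chr17:35821463-35821762 on the plus strand.
Fos: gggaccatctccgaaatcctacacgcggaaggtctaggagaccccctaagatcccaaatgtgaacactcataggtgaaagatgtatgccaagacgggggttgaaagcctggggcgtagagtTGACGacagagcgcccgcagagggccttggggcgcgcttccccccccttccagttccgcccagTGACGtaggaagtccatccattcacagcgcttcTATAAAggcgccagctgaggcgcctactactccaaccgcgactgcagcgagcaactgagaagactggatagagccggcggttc
Klf6: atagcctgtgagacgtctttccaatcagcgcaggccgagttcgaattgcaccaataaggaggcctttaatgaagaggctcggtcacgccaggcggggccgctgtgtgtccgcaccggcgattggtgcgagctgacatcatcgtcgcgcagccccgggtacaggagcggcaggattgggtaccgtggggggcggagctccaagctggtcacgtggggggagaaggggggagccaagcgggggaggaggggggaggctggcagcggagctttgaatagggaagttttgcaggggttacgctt
Ier3: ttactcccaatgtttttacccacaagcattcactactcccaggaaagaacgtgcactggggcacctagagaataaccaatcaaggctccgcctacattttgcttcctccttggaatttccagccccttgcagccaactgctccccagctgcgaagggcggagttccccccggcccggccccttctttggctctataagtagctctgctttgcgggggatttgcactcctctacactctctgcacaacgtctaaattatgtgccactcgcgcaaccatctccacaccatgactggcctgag
The Fos window held TGACG at positions -129 and -66 from the start and TATAAA at position -33, and neither sequence was found in the windows of Klf6 and Ier3. Of the 8 members with a window, 5 (Fos, Fosb, Junb, Atf3 and Btg2) held TGACG on either strand, against 20.8% of 32851 windows. The full element TGACGTCA, which contains TGACG, was in the window of Btg2 alone among these 8, against 1.79% of all windows. TATAAA was in the windows of Fos and Junb, against 13.6%, and in Junb it began at position 1, at the start itself. The AP-1 site TGANTCA was in 0 of 8 (7.81% of all windows), and the CArG box bound by serum response factor was in 0 of 8 (1.63%). These are matches of letters, and binding was not measured. Sites more than 250 bases before the start were not searched, and Egr1 and Ier2 had no window. A count of 0 here covers these windows only.

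Some libraries stood apart before any comparison. In 6 libraries the summed FPKM of the Y-linked genes Ddx3y, Eif2s3y, Kdm5d and Uty was between 7.92 and 23.2, against at most 2.97 in the other 21, although each mouse is labelled female. Among NP libraries these were replicate 1 of zone 1 and replicate 2 of zone 3, among dpc8 libraries replicate 1 of zone 1 and replicate 2 of zone 2, and among dpc16 libraries replicate 3 of both zone 2 and zone 3. The same 6 had a mean log2(FPKM + 1) of 5.26 to 6.50 over a list of 13 connective tissue and smooth muscle genes, against 1.75 to 4.42 in the others, and a summed FPKM of that list of 1111 to 5071 against 102 to 659. Of the 13 genes, 11 had the higher median in the 6 libraries, and Cnn1, a smooth muscle gene, was at 0 in some of the others. Hepatocyte markers averaged 10.7 to 11.6 on the log2 scale in the 6 and 11.5 to 12.9 in the others, and endothelial markers 2.81 to 3.70 and 3.11 to 4.53. Zone markers and labels went together, with a median log2 fold change of zone 1 over zone 3 of 4.76, 4.11 and 5.74 for periportal and -4.52, -4.79 and -4.41 for pericentral hepatocyte genes by stage in the order NP, dpc8, dpc16. The estimated depth was 13670000 to 33360000 reads in the 6 and 7530000 to 22970000 in the 21 others. Fitted without the 6, 9 members were tested, since Fosb no longer passed the filter. In microdissected bulk tissue, fewer cells of a type and less RNA per cell cannot be told apart.

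Fos (chromosome 12, 85473890 to 85477273, plus strand, mm10), which pairs with Jun proteins in the AP-1 dimer, had its highest mean in NP zone 1 (8.15 ± 6.67 FPKM, SD, n = 3) and its lowest in NP zone 3 (0.665 ± 0.297). In the order of replicates 1, 2 and 3, which is kept below, Fos was at 10.8, 13.1 and 0.569 FPKM in NP zone 1, at 1.18, 4.70 and 2.86 in NP zone 2 and at 0.911, 0.747 and 0.335 in NP zone 3. At dpc8 the Fos values were 8.09, 2.87 and 5.04 in zone 1, 2.47, 12.3 and 1.52 in zone 2 and 1.67, 0.744 and 0.354 in zone 3. At dpc16 they were 2.72, 6.00 and 0.993, 0.311, 4.75 and 1.72 and 0.467, 0.632 and 1.94. The highest NP zone 1 library had 23.1 times the lowest, which lay below 2 of the 3 NP zone 3 libraries. All dpc8 zone 1 libraries lay above all dpc8 zone 3 libraries, whereas zones 1 and 3 overlapped in NP and dpc16 mice. Zone 1 over zone 3 in NP mice was the comparison with the smallest p for Fos, with a log2 fold change of 1.96 ± 0.73 (SE; adjusted p of 0.36, limma with Benjamini-Hochberg), and it was not past the threshold of 0.05. Leaving replicate 3 out of NP zone 1 gave 2.97 (adjusted p of 0.025), leaving replicate 2 out of it gave 1.38 (0.76), and leaving out the 6 libraries gave 1.56 (0.58).

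Fosb (chromosome 7, 19302696 to 19310051, minus strand), a relative of Fos that also dimerizes with Jun proteins, was the least abundant member. It was listed at 0 in 7 libraries and reached 1 FPKM in 5. Those 5 were NP zone 1 replicate 1 (3.98 FPKM), NP zone 2 replicates 1 and 3 (1.62 and 1.07), dpc8 zone 1 replicate 1 (1.53) and dpc8 zone 2 replicate 2 (1.71), of which 3 are libraries with Y-linked FPKM. In dpc8 zone 3, where 2 libraries were at 0, the highest value was 0.0170. In dpc16 mice all 9 values were between 0 and 0.357. Its smallest p was for dpc16 against NP in zone 1, where the values were 0, 0.200 and 0 against 3.98, 0.694 and 0.128 and overlapped, with a log2 fold change of -1.0 ± 0.44 (adjusted p of 0.40). Leaving out in turn each library of NP zone 1 and dpc16 zone 1 moved that fold change between -1.45 and -0.38.

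Jun, the partner of Fos proteins and a target of JNK kinases, was detected in all libraries, with a median of 7.38 FPKM. In NP mice, Jun was at 15.6, 8.11 and 7.38 in zone 1, 10.1, 6.04 and 6.96 in zone 2 and 6.95, 5.54 and 3.59 in zone 3. At dpc8 it was at 22.0, 12.1 and 7.09, 7.06, 17.9 and 2.44 and 7.22, 5.06 and 1.5, and at dpc16 at 10.6, 11.6 and 3.35, 9.69, 9.03 and 25.2 and 8.57, 5.42 and 15.3. The 5 highest values of the 27 were all in libraries with Y-linked FPKM. Zone 1 lay wholly above zone 3 in NP mice, overlapped it by 1 library at dpc8 and was not above it at dpc16, where the highest zone 3 value was in replicate 3. The smallest p was for zone 1 over zone 3 at dpc8, with a log2 fold change of 1.43 ± 0.58 (adjusted p of 0.30), and without the 6 libraries it was 1.04 (0.42).

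Junb, another Jun protein, was among the most abundant members, with a median of 19.5 FPKM and a range of 5.87 to 46.6. The NP values of Junb were 23.6, 33.7 and 9.19 in zone 1, 17.2, 19.5 and 11.2 in zone 2 and 22.4, 7.63 and 5.87 in zone 3. At dpc8 Junb was at 46.6, 22.4 and 24.7, 24.3, 43.1 and 13.9 and 16.1, 13.8 and 8.46, and at dpc16 at 15.3, 45.0 and 20.3, 16.2, 35.6 and 21.6 and 12.1, 20.2 and 17.8. Within a group its values spanned 1.67 to 3.81-fold, less than those of Fos, which spanned 2.72 to 23.1-fold. Zone 1 lay above zone 3 without overlap at dpc8 only, among the 3 stages, with a log2 fold change of 1.19 ± 0.51 (adjusted p of 0.33). The Jun gene (chromosome 4, 95049034 to 95052222, minus strand, mm10) overlaps the antisense gene Junos, and Junb (chromosome 8, 84974484 to 84978718, minus strand) overlaps Prdx2 on the other strand. Whether strand was used in the counting is not given in the sources used here, so reads of these partners may be included.

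Egr1, a zinc finger factor induced through serum response factor, reached the highest level of the members outside the 6 libraries with Y-linked FPKM, 81.6 FPKM in dpc16 zone 1 replicate 2. In NP mice, Egr1 was at 21.5, 62.1 and 3.55 in zone 1, 4.01, 37.5 and 5.81 in zone 2 and 5.11, 12.9 and 2.93 in zone 3. At dpc8, Egr1 was at 47.3, 14.2 and 30.0, 7.81, 60.02 and 18.2 and 7.61, 6.93 and 7.54, and at dpc16 at 13.6, 81.6 and 23.5, 14.7, 48.3 and 13.2 and 22.6, 22.6 and 16.2. The spread differed between groups, from 1.10-fold in dpc8 zone 3 to 17.5-fold in NP zone 1. All 3 dpc16 zone 3 libraries lay above all NP and all dpc8 zone 3 libraries. In the fit over all groups, zone 1 over zone 3 at dpc8 had the smallest p, with a log2 fold change of 1.76 ± 0.88 (adjusted p of 0.43). The comparison of dpc16 with dpc8 in zone 3 gave a log2 fold change of 1.35 ± 0.88 (adjusted p of 0.60) in that fit, and an adjusted p of 0.028 when only the libraries of those 2 groups were fitted, so the call depends on whether the spread of the other groups is shared.

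Atf3 (chromosome 1, 191170296 to 191218039, minus strand), a stress-induced factor of the ATF and CREB family, was low in most libraries, with a median of 1.25 FPKM. The NP values of Atf3 were 1.16, 3.37 and 2.30 in zone 1, 1.25, 1.31 and 0.925 in zone 2 and 3.84, 0.478 and 1.72 in zone 3. Among dpc8 libraries Atf3 was at 5.22, 2.82 and 3.71, 0.177, 7.45 and 0.703 and 0.954, 0.897 and 0.438, and among dpc16 libraries at 1.13, 0.700 and 1.62, 1.87, 0.285 and 6.11 and 0.131, 0.268 and 4.70. In dpc8 zones 1 and 2 and dpc16 zones 2 and 3, the library with Y-linked FPKM was the highest, and the 2 NP libraries of that kind were the lowest of their groups. Zone 1 lay wholly above zone 3 at dpc8, with a log2 fold change of 1.46 ± 0.67 (adjusted p of 0.37). Without the 6 libraries, dpc16 against NP in zone 3 gave -1.60 with an adjusted p of 0.028, and with them it gave -0.42 with an adjusted p of 0.93.

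Klf6 (chromosome 13, 5861482 to 5870394, plus strand), a zinc finger factor of the Kruppel-like family, and Ier3 (chromosome 17, 35821684 to 35822923, plus strand), a small protein linked to cell survival and NF-kB signalling, had the highest single values of all members. In NP mice, Klf6 was at 25.6, 7.69 and 7.41 in zone 1, 5.31, 7.00 and 13.8 in zone 2 and 11.03, 12.1 and 2.57 in zone 3. At dpc8, Klf6 was at 76.1, 11.4 and 7.92, 6.41, 50.4 and 7.16 and 4.41, 7.37 and 5.86, and at dpc16 at 9.14, 6.62 and 10.3, 4.52, 5.59 and 104 and 6.69, 4.78 and 42.1. In each of the 6 groups with a Y-linked library, that library was the highest for Klf6, and 5 of the 6 lay above all 21 others. Its smallest p was for zone 1 over zone 3 at dpc8, with a log2 fold change of 1.59 ± 1.0 (adjusted p of 0.54). With 1 library of dpc8 zone 1 left out, it was 0.63 (replicate 1, with Y-linked FPKM) to 2.19 (replicate 3).

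The NP values of Ier3 were 14.2, 3.63 and 1.73 in zone 1, 1.81, 1.30 and 6.95 in zone 2 and 6.26, 10.3 and 3.20 in zone 3. Among dpc8 libraries Ier3 was at 45.2, 1.64 and 2.06, 3.16, 50.5 and 1.26 and 2.71, 3.23 and 2.01, and among dpc16 libraries at 1.55, 3.00 and 5.06, 0.728, 1.44 and 83.6 and 2.55, 1.66 and 43.4. All 6 libraries with Y-linked FPKM (10.3 to 83.6 FPKM) lay above all 21 others (0.728 to 6.95 FPKM), with no overlap. The widest group was dpc16 zone 2, where the highest value was 115 times the lowest, and Ier3 was estimated to rest on between 8 and 2596 reads a library. Its smallest p was for dpc8 against NP in zone 2, with a log2 fold change of 1.08 ± 1.36 (adjusted p of 0.97), and this turned to -0.28 without dpc8 zone 2 replicate 2.

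Ier2 (chromosome 8, 84661331 to 84662852, minus strand), a nuclear protein of the immediate early set, had the smallest residual SD of the members over 27 libraries (0.49), while without the 6 libraries Atf3 was at 0.37 and Ier2 at 0.43. In NP mice, Ier2 was at 21.1, 29.0 and 18.9 in zone 1, 15.0, 18.5 and 6.97 in zone 2 and 14.6, 9.46 and 13.2 in zone 3. At dpc8, Ier2 was at 21.9, 16.1 and 19.4, 12.9, 38.3 and 9.41 and 9.86, 12.03 and 9.77, and at dpc16 at 7.40, 16.8 and 13.1, 7.30, 12.8 and 10.8 and 7.35, 8.43 and 8.52. Zone 1 lay above zone 3 without overlap in NP and dpc8 mice. In zones 1 and 3 all dpc16 libraries lay below all NP libraries, with a log2 fold change of -0.88 ± 0.39 (adjusted p of 0.39) in zone 1, the smallest p of this gene, and of -0.54 ± 0.39 and an adjusted p of 0.69 in zone 3.

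Btg2 (chromosome 1, 134075170 to 134079120, minus strand), an antiproliferative gene that also responds to p53, came closest to a call. The NP values of Btg2 were 15.2, 19.7 and 5.68 in zone 1, 8.80, 13.2 and 8.12 in zone 2 and 3.999, 5.61 and 1.93 in zone 3. Among dpc8 libraries Btg2 was at 26.8, 13.01 and 7.92, 8.33, 27.6 and 4.01 and 4.56, 2.65 and 2.56, and among dpc16 libraries at 7.17, 21.4 and 8.85, 5.93, 18.4 and 28.3 and 4.70, 7.81 and 17.4. Zone 1 exceeded zone 3 without overlap in NP mice and in dpc8 mice, and the zones overlapped at dpc16. At dpc8 the means were 15.9 ± 9.78 FPKM in zone 1 and 3.26 ± 1.13 in zone 3, with a log2 fold change of 1.86 ± 0.63 (adjusted p of 0.18). With limma's array weights the same comparison gave 1.68 and an adjusted p of 0.036, and a fit blocked on the replicate number gave 1.86 and an adjusted p of 0.036. Leaving out the 6 libraries gave 1.42 with an adjusted p of 0.23.

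**Figure D1:**
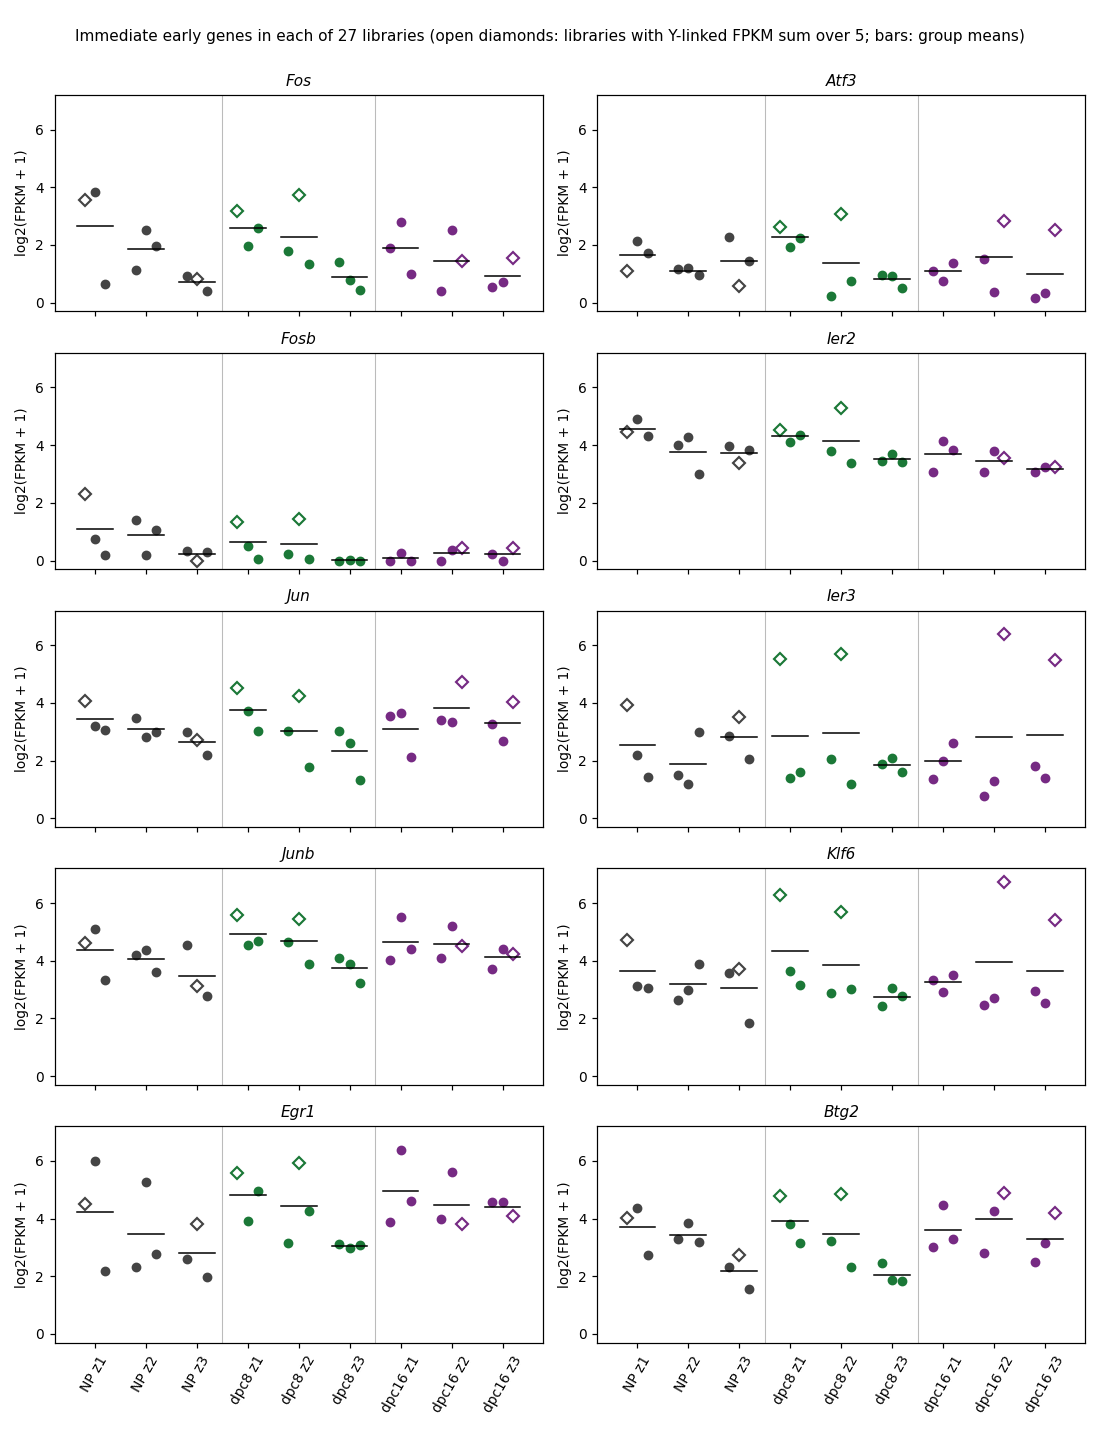
Expression of the 10 genes in 27 libraries as log2(FPKM + 1), by stage and zone (z1 to z3), with replicates 1 to 3 from left to right in each group and bars at the group means. Open diamonds are the 6 libraries with Y-linked FPKM sums over 5. For Ier3 they lie above every filled point, while for Egr1 the highest value is a filled point in dpc16 zone 1.

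The contrast of zones 1 and 3 asks, stage by stage, whether these genes are zonated. None of the 10 passed the threshold at any stage, while 1.34% of all tested genes did in NP mice, 1.61% at dpc8 and 1.55% at dpc16. At an unadjusted p under 0.05, 3 members were found in NP mice (8.02% of all genes), 5 at dpc8 (12.2%) and 0 at dpc16 (7.86%). The fitted level was higher in zone 1 for 9 of 10 members in NP mice, 10 of 10 at dpc8 and 6 of 10 at dpc16, against 53.5%, 56.7% and 48.3% of all genes. The median log2 fold change of the members was 0.85, 1.45 and 0.20, and that of all tested genes 0.03, 0.08 and -0.02. Without the 6 libraries, 8, 8 and 9 of 9 members were higher in zone 1 (49.6%, 53.2% and 53.1% of 12270 genes), with medians of 0.57, 1.04 and 0.53. Ier3 was then lower in zone 1 in NP mice (-0.64) and at dpc8 (-0.35), and neither value was past the threshold.

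At dpc8 the zone 1 libraries lay wholly above the zone 3 libraries for 8 members, all except Jun and Ier3, and this was true of 12.8% of all genes. In NP mice it held for 3 members (Jun, Ier2 and Btg2) against 6.63% of genes, and in dpc16 mice for 0 against 8.36%. With dpc16 zone 3 replicate 3, a library with Y-linked FPKM, left out, the dpc16 count was 2, Fos and Atf3 (15.5% of genes). The dpc8 separation of Fosb lay near 0, with a lowest zone 1 value of 0.0489 FPKM and a highest zone 3 value of 0.0170 FPKM. Members varied together over libraries, so these counts are not of independent genes. The connective tissue list had a mean log2(FPKM + 1) of 6.26, 4.39 and 3.00 in dpc8 zone 1 and 2.40, 3.55 and 2.43 in dpc8 zone 3, so it overlapped between the zones. The median log2 fold change of that list for zone 1 over zone 3 was 0.03, 1.97 and -0.88 in NP mice, at dpc8 and at dpc16, and -0.37, 0.88 and 0.55 without the 6 libraries. The biliary epithelial list was at 1.92, 2.07 and 2.18 in dpc8 zone 1 and at 0.18, 0.56 and 0.08 in dpc8 zone 3, without overlap. The part of the biliary list in the zone difference of the members was not tested. The connective tissue list was run only as a covariate, among the settings given below, where 0 members were called.

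**Figure D2:**
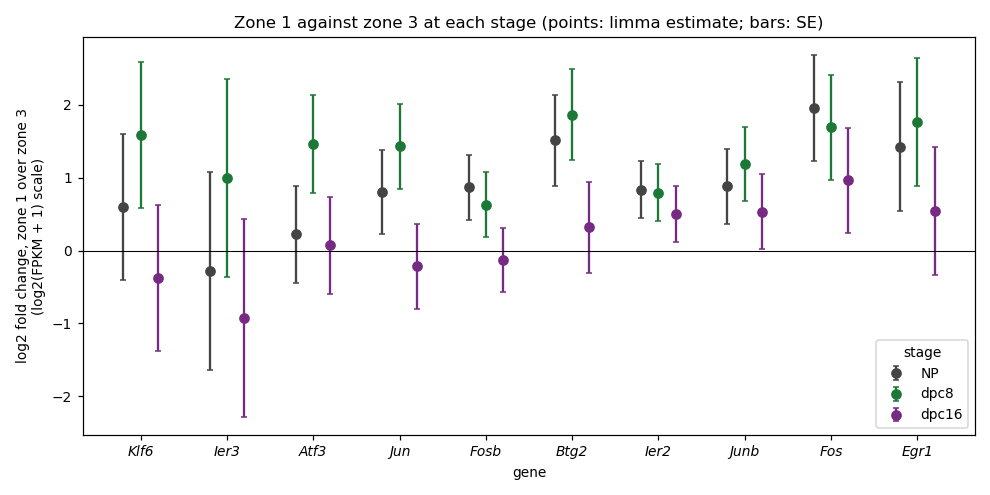
Log2 fold change of zone 1 over zone 3 for each gene in NP, dpc8 and dpc16 mice, as limma estimates with SE bars on the log2(FPKM + 1) scale. At dpc8 all 10 estimates are above 0, from 0.63 for Fosb to 1.86 for Btg2, and the bars of Ier3 and Klf6 are the widest. The Ier3 value at dpc8 was -0.35 when the 6 libraries were left out.

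The pregnant stages were compared with NP in each zone to ask whether these genes move with gestation. From NP to dpc8 none of the 10 was past the threshold, where 0.0309% of genes were in zone 1, 0.00772% in zone 2 and 0.0154% in zone 3, and none had an unadjusted p under 0.05 (3.13%, 5.06% and 2.74% of genes). The median of the members was 0.32 in zone 1, 0.41 in zone 2 and -0.20 in zone 3, with the median of all genes within 0.03 of 0 in each, and 7, 8 and 3 of 10 were fitted higher (51.7%, 50.3% and 46.3% of genes). Without the 6 libraries the medians were 0.16, -0.28 and 0.05, so the direction turned in zones 2 and 3, and 6, 2 and 5 of 9 were fitted higher (51.6%, 47.7% and 47.9% of genes). From NP to dpc16 none was past the threshold in zone 1 (1.37% of genes), zone 2 (2.66%) or zone 3 (1.32%), and 2 members, Fosb and Ier2, had an unadjusted p under 0.05 in zone 1 (11% of genes), with 0 in zones 2 and 3 (16.6% and 11.5%). The medians were -0.47, 0.54 and 0.40, and 2, 7 and 8 of the 10 members were fitted higher in zones 1, 2 and 3 (45.6%, 52.7% and 51.4% of genes). Ier2 lay wholly below NP in zone 1 (8.01% of genes) and in zone 3 (8.87%), and Egr1 wholly above it in zone 3 (7.84%). Without the 6 libraries 5, 4 and 5 of 9 were fitted higher (50.1%, 47.2% and 47.8% of genes) and the medians were 0.05, -0.16 and 0.02, so the direction turned in zones 1 and 2. Both comparisons share the NP libraries.

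Between dpc16 and dpc8, none of the 10 passed in zone 1 (2.01% of genes), zone 2 (1.51%) or zone 3 (1.37%), and none had an unadjusted p under 0.05 (13.4%, 12.1% and 12.4% of genes). The members' medians were -0.64, -0.02 and 0.63. In zone 1, 1 of 10 was fitted higher at dpc16 (45.3% of genes), with Atf3 alone wholly below (10.1%). In zone 2, 5 of 10 were fitted higher (50.7%). In zone 3, 9 of 10 were fitted higher (54.4%), with Egr1 and Btg2 wholly above (11.1% of genes) and Ier2 wholly below (12.2%). Without the 6 libraries 4, 5 and 4 of 9 were fitted higher (48.5%, 50.2% and 48.4% of genes), and the medians were -0.14, 0.37 and -0.02, so the direction turned in zones 2 and 3. Moderated F tests across all groups called 0 members for any stage difference (4.75% of genes), 0 for any zone difference (2.25%) and 0 for a stage change that differed between zones (0.0309%). At an unadjusted p under 0.05 the counts were 0, 1 (Btg2) and 0, against 15.5%, 8.47% and 2.42% of genes. In zones 1, 2 and 3 the connective tissue list had a median of 0.29, 1.78 and -1.14 from NP to dpc8, of -1.57, 0.79 and -0.31 from NP to dpc16, and of -1.79, -0.99 and 0.74 from dpc8 to dpc16. With the 6 libraries left out, these were 0.32, 0.21 and -0.41, then -0.27, -0.60 and -0.80, and then -0.98, -1.52 and -0.31. Apart from a fit with a connective tissue covariate, given below, the part of the list in the stage values of the members was not tested. The difference between zones in the members' stage change was not past the test for any of the 10.

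FPKM sums differed between libraries, and rescaling all to 1 common sum moved the median of all genes by up to -0.61, from -0.05 to -0.66 for dpc16 over dpc8 in zone 1. Under that scaling the members' median there was -1.32, and 9 of 10 lay below the median of all genes. For zone 1 over zone 3 the rescaled medians were 0.89, 1.70 and -0.06 in NP, dpc8 and dpc16 mice, beside 0.04, 0.19 and -0.29 for all genes, so the direction at dpc16 turned, and 7 of 10 members lay above the median of all genes there.

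The spread within groups was wide for most members. The residual SD on the log2 scale, over the 9 groups, had a median of 0.847 for the members and 0.451 for all tested genes, whose 90th percentile was 0.858. Ier3 (1.80) was at percentile 98.99 of all tested genes, Klf6 (1.33) at 97.25, Egr1 (1.18) at 95.92, Fos (0.95) at 92.49 and Atf3 (0.87) at 90.27. Btg2 (0.83), Jun (0.76) and Junb (0.67) were between percentiles 80.82 and 88.98, and Fosb (0.55) and Ier2 (0.49) at 68.75 and 58.95. Relative to the SD that limma's trend gives at the same level, the ratio ran from 1.12 for Fosb to 4.17 for Ier3. Differences between the 9 groups accounted for 8.28% of the variance of Ier3 and 15.95% of that of Klf6, against 51.68% for Ier2 and 48.91% for Btg2, and the median was 37.1% for the members and 34.0% for all genes. This share was not corrected for the 9 means fitted, so it lies above 0 even where groups do not differ.

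Leaving out the 6 libraries with Y-linked FPKM separated these genes. The residual SD of Ier3 went from 1.80 to 0.57, that of Klf6 from 1.33 to 0.50 and that of Atf3 from 0.87 to 0.37. It stayed close for Fos (0.95 and 0.95), Egr1 (1.18 and 1.23) and Junb (0.67 and 0.72), and Egr1 was then at percentile 99.31 and Fos at 97.85 of 12270 genes. The median of all genes went from 0.451 to 0.363. For Atf3 the share of variance between groups was 25.27% with the 6 libraries and 80.54% without them. Uncorrected, such a share also rises by construction when the same group means are fitted to fewer libraries.

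**Figure D3:**
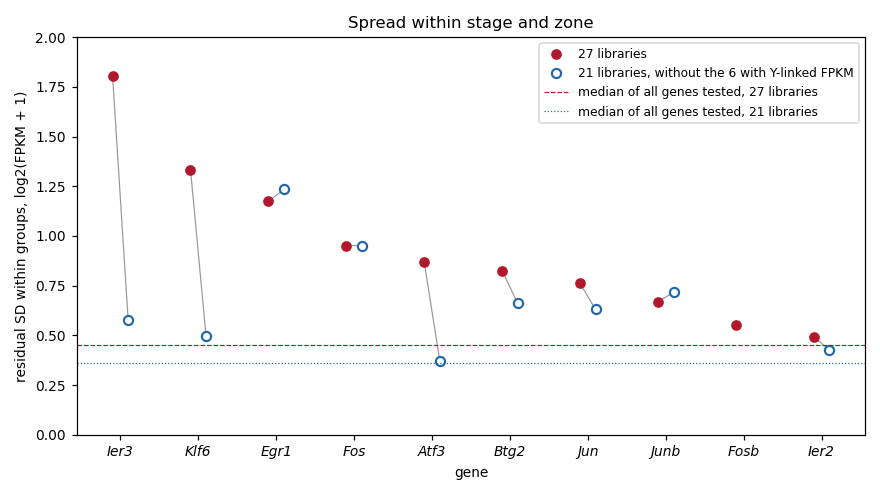
Residual SD of log2(FPKM + 1) within the 9 groups for each gene, in 27 libraries (filled) and in the 21 without Y-linked FPKM (open), with dashed and dotted lines at the medians of all genes tested. Ier3, Klf6 and Atf3 drop when the 6 libraries are left out, and Fos and Egr1 do not.

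The library that was highest in its group was counted for each member. In dpc8 zone 1 replicate 1 and dpc8 zone 2 replicate 2, all 10 members were at the highest value of their group, and in dpc16 zone 3 replicate 3, 8 were. In other groups the highest library differed by gene. NP zone 1 replicate 2 and NP zone 2 replicate 2 were each the highest for the same 6 members (Fos, Junb, Egr1, Atf3, Ier2 and Btg2), and neither has a raised Y-linked sum. In dpc16 zone 2, replicate 2 was highest for Fos, Junb, Egr1 and Ier2, and replicate 3, the library with Y-linked FPKM, for the other 6. In dpc16 zone 1, replicate 2 was highest for 7 members, and replicate 3 for Atf3, Ier3 and Klf6.

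**Figure D4:**
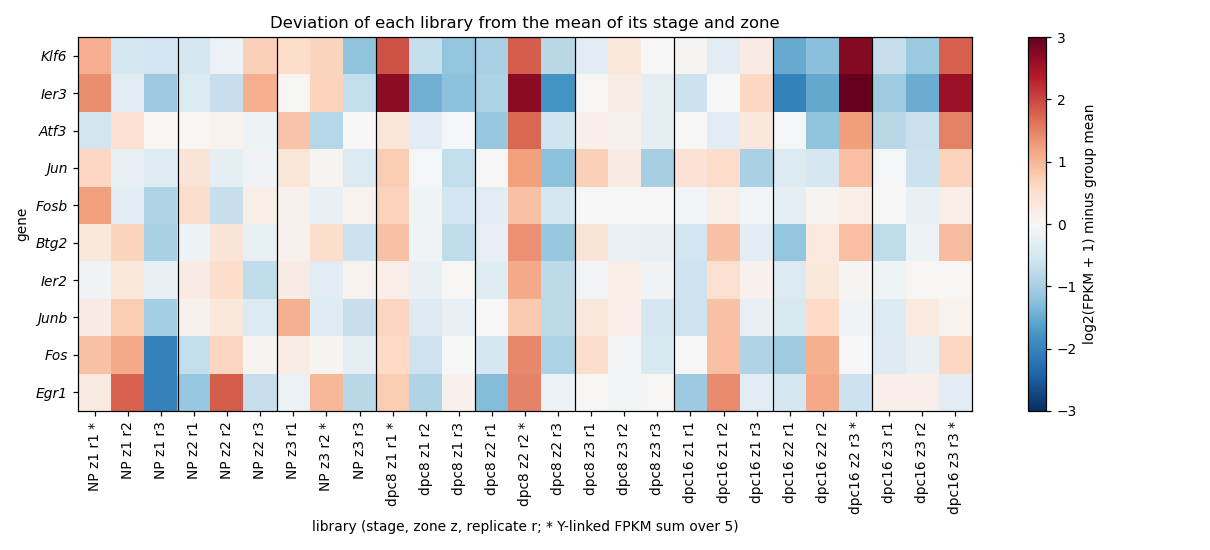
Deviation of each library from the mean of its stage and zone, as log2(FPKM + 1), for 10 genes (rows) and 27 libraries (columns, stars mark Y-linked FPKM sums over 5). The starred dpc8 and dpc16 columns are darkest red for Ier3 and Klf6, and NP z1 r2, NP z2 r2 and dpc16 z1 r2 are red for Egr1 and Fos.

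The correlations of these deviations describe the pattern over libraries that share depth, section and tissue makeup. Over 27 libraries the 45 pairs of members had a Pearson r between 0.05 and 0.96, with the highest for Ier3 and Klf6. Fos had r = 0.80 with Btg2, 0.78 with Egr1 and 0.77 with Junb, while Egr1 had r = 0.14 with Klf6. Over the 21 libraries, Ier3 and Klf6 were at 0.58, Fos and Egr1 at 0.82, Fos and Junb at 0.75, Junb and Btg2 at 0.89, and Egr1 and Klf6 at -0.03.

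Set beside the connective tissue list, Klf6 and Ier3 were high where the list was high, while high Egr1 and Fos values lay in libraries of both kinds. The top Fos value (13.1 FPKM) was in NP zone 1 replicate 2, outside the 6, and the next 3 (12.3, 10.8 and 8.09 FPKM) were in libraries of the 6. The top Egr1 value (81.6 FPKM) was outside the 6, and the third (60.02 FPKM) was in dpc8 zone 2 replicate 2, which is among them. In the 6 libraries the median was 46.3 FPKM for Klf6 and 44.3 for Ier3, against 7.00 and 2.06 in the 21 others. For Egr1 the medians were 18.9 and 14.2 FPKM and for Fos 5.02 and 1.52, and no library of the 6 lay above all others for Egr1 or Fos. For Jun, 5 of 6, for Atf3, 4 of 6, and for Btg2, 3 of 6 did so. Because these 6 libraries also differ in Y-linked FPKM, depth and hepatocyte markers, the part of connective tissue in these values was not tested on its own. A fit with a connective tissue covariate is among the other settings given below.

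**Figure D5:**
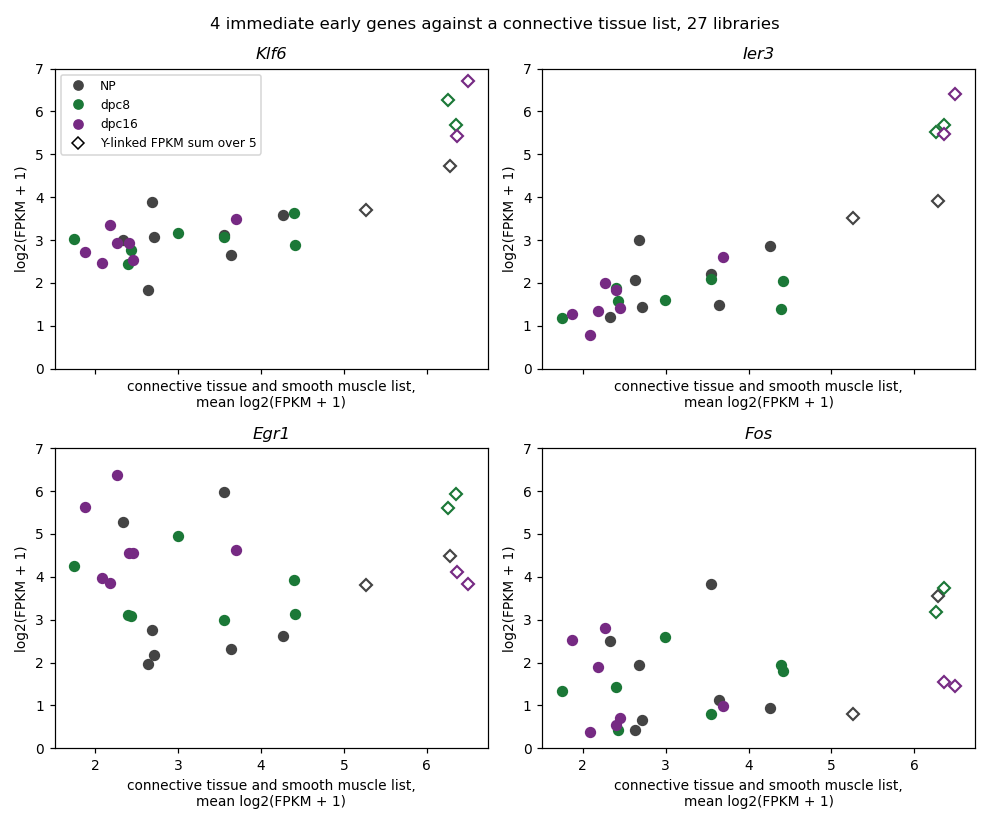
Log2(FPKM + 1) of Klf6, Ier3, Egr1 and Fos against the mean log2(FPKM + 1) of 13 connective tissue and smooth muscle genes in 27 libraries, coloured by stage, with open diamonds for Y-linked FPKM sums over 5. The diamonds lie at 5.26 to 6.50 on the horizontal axis, where all Ier3 values exceed those of the other libraries and Egr1 values do not.

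The other genes of the response were described from lists. Of 9 tested AP-1 and small Maf factors, such as Jund, Mafg and Fosl2, 0 passed in the 12 comparisons of 2 groups. Jund ranged from 23.7 to 63.8 FPKM with a residual SD of 0.24, whereas Fosl2 ranged from 1.64 to 30.8 FPKM with a residual SD of 1.04 and its highest value in dpc16 zone 2 replicate 3. Of 23 other early response genes, 1 passed in 1 comparison, where 2.66% of all genes did. It was Gadd45b, a growth arrest and DNA damage gene, which rose from NP to dpc16 in zone 2 by 3.30 ± 0.83 on the log2 scale with an adjusted p of 0.031. Its values there were 49.6, 37.4 and 6.31 FPKM at dpc16 and 3.23, 2.501 and 0 in NP mice, and without the libraries with Y-linked FPKM the fold change was 4.17 with an adjusted p of 0.0018. Without replicate 2 or 3 of NP zone 2, or replicate 1 or 2 of dpc16 zone 2, the adjusted p was 0.056 to 0.17, and in a fit of those 2 groups alone it was 0.21. The median log2 fold change of this list for zone 1 over zone 3 was 0.38, 0.86 and -0.35 in NP, dpc8 and dpc16 mice, and 0.01, 0.40 and -0.06 without the 6 libraries.

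Feedback genes of the MAP kinase pathway were described next. Of 12 tested phosphatases and Sprouty genes, Dusp6, a MAP kinase phosphatase, was past the threshold in 3 comparisons and no other gene in any of the 12, while 1.55%, 1.37% and 2.01% of all genes passed in those 3. In dpc16 mice Dusp6 was at 7.95, 13.2 and 12.97 FPKM in zone 1 and 45.4, 40.8 and 36.3 in zone 3, and it was lower in zone 1 by a log2 fold change of -1.78 ± 0.29 (adjusted p of 5.19e-04). It was also lower in dpc16 than in NP zone 1 (-1.22 ± 0.29, adjusted p of 0.031) and than in dpc8 zone 1 (-1.17 ± 0.29, adjusted p of 0.035), with adjusted p-values of 0.067 and 0.079 without the libraries with Y-linked FPKM. The first of these was above the threshold without NP zone 1 replicate 1 or 2 or dpc16 zone 1 replicate 1 or 2 (adjusted p of 0.062 to 0.21), and the second without any 1 library but dpc16 zone 1 replicate 3 (0.080 to 0.22). The zone comparison at dpc16 had an adjusted p of 0.0052 without them. Dusp1, an early phosphatase of the same list, ranged from 3.60 to 55.7 FPKM with a residual SD of 0.75 and its highest value in dpc8 zone 2 replicate 2.

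Among 17 upstream kinases and serum response factors, Map3k1, a kinase above JNK, was lower at dpc16 than in NP zone 2 by -1.5 ± 0.37 with an adjusted p of 0.027, and 0 others passed (2.66% of all genes in that comparison). Its values were 4.92, 8.69 and 2.70 against 9.07, 15.9 and 27.1 FPKM, and without the libraries with Y-linked FPKM the adjusted p was 0.13. It was 0.063 to 0.17 without NP zone 2 replicate 2 or 3 or dpc16 zone 2 replicate 1 or 3. In the 12 comparisons of 2 groups, 0 of 10 heat shock genes, 0 of 10 NF-kB and IL-6 targets, 0 of 10 p53 targets and 0 of 9 genes of the integrated stress response passed. In the F test of stages, Mafg (adjusted p of 0.030), the early response gene Gadd45b (0.045) and the heat shock co-chaperone Bag3 (0.027) passed, and in that of zones Dusp6 (0.0086), which is 3 and 1 of the 100 genes tested in these 8 lists, against 4.75% and 2.25% of all genes. Mapk14 and Elk4 among the upstream genes had medians of 64.2 and 67.1 FPKM. Hspa8, Hsp90aa1 and Hspd1 were the most abundant heat shock genes, with medians of 562, 232 and 217 FPKM. Cebpb, Nfkbia and Cxcl1 among NF-kB and IL-6 targets had medians of 59.1, 21.8 and 4.58 FPKM. The p53 targets Ccng1 and Cdkn1a had medians of 15.3 and 10.7 FPKM and their highest values, 194 and 170 FPKM, in dpc16 zone 2 replicate 3, the library with the highest Klf6 and Ier3, while Trp53inp1 (median of 23.6 FPKM) was highest in NP zone 2 replicate 2. At dpc8 the median log2 fold change of zone 1 over zone 3 was 0.94 for the phosphatase and Sprouty list, 0.61 for the integrated stress response and 0.55 for p53 targets, and it was between -0.06 and 0.16 for the other lists apart from the early response genes. At dpc16 those first 3 lists were at -0.18, -0.45 and -0.46, and without the 6 libraries they were at 0.19, 0.41 and 0.15 at dpc8 and at 0.17, -0.26 and 0.07 at dpc16.

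The genes whose deviations within groups were nearest to the mean of the 10 members over 27 libraries were Carm1 (Pearson r = 0.92), Slco3a1 (0.92), Prrc2a (0.91), Acbd3 (0.91) and Nr4a1 (0.91). Nr4a1, an orphan nuclear receptor of the immediate early class, was highest in dpc8 zone 1 replicate 1 at 41.5 FPKM, followed by NP zone 1 replicate 2 at 20.7, dpc8 zone 2 replicate 2 at 19.6 and NP zone 1 replicate 1 at 16.2 FPKM, of which NP zone 1 replicate 2 alone is not among the 6 libraries. Without centring on group means the nearest were Fat1 (0.91), App (0.88), Sept11 (0.88), Plec (0.87) and Cdh3 (0.87). Over the 21 libraries without Y-linked FPKM the nearest after centring were Irs2 (0.93), Top3b (0.87), Ddx17 (0.86), Naa80 (0.86) and Col20a1 (0.85), none of which is among the first 5, and Nr4a1 was at 0.77.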

How the data were processed

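Per the labels, areas of each zone were cut from frozen, acetone-fixed sections of liver, and libraries were made from rRNA-depleted total RNA. The authors trimmed reads with cutadapt, aligned them to mm10 with HISAT2 2.1.0, kept unique alignments and obtained the deposited FPKM values with Cuffdiff of Cufflinks 2.2.1 on protein-coding GENCODE genes. Groups came from sample titles. Gene positions came from GENCODE vM21 on mm10, where Ier2 has another identifier version.

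Values were tested as log2(FPKM + 1) with limma 3.58.1 in R 4.3.3, which fits FPKM because Cuffdiff needs reads. Genes at 1 FPKM or more in at least 3 libraries were kept. One mean was fitted per group, with an intensity trend and robust settings, and two-sided p-values were adjusted by Benjamini-Hochberg over all 12952 genes in each comparison at a threshold of 0.05. Folds on this scale understate changes of weak genes. The code was tested on simulated data. The members, lists and tests were chosen with earlier results of these data known. A member's fold change is given for its comparison with the smallest p, since none passed, and others beside a value they bear on. Of each list, up to 3 genes with the highest mean FPKM are named (1 is not reported here) and those past the threshold, which were chosen after their values were seen, as were the other comparisons shown for Ier2, Egr1 and Atf3.

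The table holds no read counts. Depth was estimated for each library as a value at which low values of single-transcript genes fell on whole read steps. This assumed fragments of 200 bases on average with an SD of 80. At the chosen depth 92.9% to 97.6% of these values lay on whole steps (within 0.1 reads), a share that is fitted and does not check the depth. The estimated depths were 7530000 to 33360000 reads, with a median of 16450000. No interval was computed from these estimates.

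Replicate numbers recur in each group. In dpc16 mice libraries that carried 1 number in different zones deviated together, with all 9 correlations over 0.1 (0.26 to 0.86, median 0.36). By this rule they pair by number, which rests on the data alone, the labels giving no meaning to the number. The fit described above has no term for the number, so its p-values are unpaired, and a fit blocked on it is given below. In both zone 2 and zone 3 at dpc16, replicate 3 was a library with Y-linked FPKM. The part of this in the correlations was not tested. The NP and dpc8 libraries did not meet this rule (4 and 5 of 9).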

Additional observations from a re-analysis of the deposited data

How the results depend on the processing

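The counts of members past the threshold were 0 in all 12 comparisons of 2 groups and all 3 F tests, and 6 of these counts under other settings, plus 1 with a library left out, became 1. With array weights Btg2 was called for zone 1 over zone 3 at dpc8 (log2 fold change of 1.68, adjusted p of 0.036) and in the F test of zones (adjusted p of 0.048). The weights raised the count over all genes from 208 to 855 and from 292 to 799 there, the block raised 208 to 459, and dropping the 6 libraries raised 171 to 475 for dpc16 against NP in zone 3 and 615 to 1126 in the F test of stages. With only the 2 groups compared, which was not run for F tests, Egr1 was called for dpc16 over dpc8 in zone 3 (1.35, adjusted p of 0.028), where 243 genes passed against 178. Dropping the 6 libraries with Y-linked FPKM put Atf3 past the threshold for dpc16 against NP in zone 3 (-1.60, adjusted p of 0.028) and in the F test of stages (adjusted p of 0.042). A pseudocount of 0.1, another scaling, no filter on low values and the connective tissue covariate called 0 members. With a pseudocount of 0.1 the median residual SD of the members was 1.31, against 0.847. The cause of each was not tested, except that a smaller pseudocount widens low values by construction.

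With the replicate number as a block, 1 member (Btg2) was called for zone 1 over zone 3 at dpc8 (1.86, adjusted p of 0.036), and the block changed no other count of members and no other call of a fold change given in the text. The numbers did not pair the dpc8 libraries by the rule used.

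Leaving out 1 library at a time gave 0 to 1 members for zone 1 over zone 3 in NP mice, where Fos was called without NP zone 1 replicate 3 (2.97, adjusted p of 0.025) and 145 genes passed against 173, and 0 in all other comparisons. The Ier3 difference between dpc8 and NP in zone 2 ran from -0.28 to 1.98 when 1 library was left out, against 1.08 with all, and reversed to -0.28 without dpc8 zone 2 replicate 2 (adjusted p of 1), to -0.28 when the 6 libraries with Y-linked FPKM were dropped (adjusted p of 0.94) and to -0.14 with the connective tissue covariate (adjusted p of 0.98). The other member fold changes given for their smallest p kept their direction in these settings. Ier3 rested on as few as 8 estimated reads in 1 library, and Fosb was listed at 0 in 7, which limits both.

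Alternatives chosen after seeing the data were likeness and member correlations without the libraries with Y-linked FPKM, member directions under other scalings and, with the list medians, without the 6 libraries, and the zone order at dpc8 without 1 library, which is not reported since leaving out a library cannot undo a complete separation.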
